A study of Mus musculus with 6 samples.

Results

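The G1 cyclins, their kinases, 2 inhibitors of these kinases and the retinoblastoma gene were followed in BV2 cells, mouse microglia immortalized as a cell line, after stimulation with sTREM-1, the soluble form of a receptor of myeloid cells. The genes were chosen by name as the 10 gene symbols Ccnd1, Ccnd2, Ccnd3, Ccne1, Ccne2, Cdk4, Cdk6, Cdkn1b, Cdkn2c and Rb1 of 46095 symbols in the count table, and all 10 passed the filter on low counts. RNA was sequenced in 3 libraries of control BV2 cells (CON group) and 3 libraries of BV2 cells kept for 6 h with recombinant sTREM-1 at 1 μg/mL (sTREM-1 group). The paper describes the control cells as untreated, and no source used here names a vehicle given to them. Both groups come from the same line, which was immortalized with a retrovirus carrying the raf and myc oncogenes, so that entry into the cell cycle in either group is that of a transformed line. According to the methods the cells were kept in medium with serum. The labels give n = 3 a group, and the methods say that cells were seeded in a multi-well plate. Neither says that the sequenced wells came from separate cultures. The methods give a larger number of cultures a group than the labels, and no more than the labelled libraries were analysed here. The p-values measure the spread between these libraries, which may be technical.

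G1 is the phase in which a cell commits to a further round of DNA replication. The D cyclins respond to growth factors and bind the kinases Cdk4 and Cdk6, which begin to phosphorylate the retinoblastoma protein Rb1. Phosphorylated Rb1 releases the E2F transcription factors, and these raise the E cyclins, which drive Cdk2, together with the genes of DNA synthesis. The inhibitor p18, encoded by Cdkn2c, binds Cdk4 and Cdk6, while p27, encoded by Cdkn1b, inhibits cyclin E with Cdk2 and also helps D cyclins to assemble with their kinases. In macrophages and microglia the growth factor CSF1 is a well known inducer of D cyclins.

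The promoters of 4 genes are shown first, because they carry short sequences known to bind factors that act at this step. They are the 250 bases before the start of transcription in the RefSeq entries of the mouse build GRCm38.p6, written on the strand of the gene. RefSeq promoters were matched for 6 of the 10 genes, with 8 starts in all, and Ccnd1, Ccnd2, Ccne2 and Rb1 were not among them. The promoter of Cdk4 (chr10:127063285-127063534, plus strand) is printed with the E-box CACGTG in capitals, a sequence that reads the same on both strands and that MYC with its partner MAX can bind. The promoters of Ccne1 (chr7:38107491-38107740, minus strand) and of the upstream start of Cdkn2c (chr4:109666757-109667006, minus strand) are printed with the E2F core TCCCGC, on either strand, in capitals. By the GENCODE positions given below, the printed Cdkn2c window and the end of the Ccne1 window lie inside the annotated gene. So do the Cdk6 window and the downstream windows of Ccnd3 and Cdkn2c, which are not printed. The upstream promoter of Ccnd3 (chr17:47504801-47505050, plus strand) is printed with the FOXO site TGTTTAC, searched on both strands, in capitals.
Cdk4 promoter: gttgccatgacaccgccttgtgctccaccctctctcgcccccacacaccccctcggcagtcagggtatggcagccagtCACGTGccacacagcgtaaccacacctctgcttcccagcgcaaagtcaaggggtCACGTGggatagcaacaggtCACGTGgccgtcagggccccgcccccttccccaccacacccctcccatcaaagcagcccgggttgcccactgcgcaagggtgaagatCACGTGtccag
Ccne1 promoter: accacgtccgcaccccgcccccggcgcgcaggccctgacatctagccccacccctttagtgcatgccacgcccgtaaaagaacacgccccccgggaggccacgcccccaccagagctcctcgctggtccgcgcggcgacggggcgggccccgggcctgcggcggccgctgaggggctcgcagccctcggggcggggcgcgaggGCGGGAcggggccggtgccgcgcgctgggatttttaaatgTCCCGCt
Cdkn2c promoter: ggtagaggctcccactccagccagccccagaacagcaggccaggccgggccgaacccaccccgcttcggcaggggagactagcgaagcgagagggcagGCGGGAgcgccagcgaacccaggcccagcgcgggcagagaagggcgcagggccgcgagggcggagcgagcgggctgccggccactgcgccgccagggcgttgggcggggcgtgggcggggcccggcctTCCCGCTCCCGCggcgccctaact
Ccnd3 promoter: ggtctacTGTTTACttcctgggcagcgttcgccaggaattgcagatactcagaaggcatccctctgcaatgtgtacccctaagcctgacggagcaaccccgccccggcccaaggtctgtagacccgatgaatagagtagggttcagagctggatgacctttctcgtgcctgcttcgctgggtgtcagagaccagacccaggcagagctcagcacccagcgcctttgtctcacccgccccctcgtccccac

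The Cdk4 window held 4 E-boxes and the Cdk6 window 1, where 6.0% of 32851 promoters of the same length held at least 1. The E2F core occurred 3 times in the Cdkn2c window, with 2 of the matches side by side, 2 times in the Ccne1 window and 1 time in the Cdk6 window, and 16.9% of all promoters held it. The longer E2F site, searched on both strands as TTTCCCGC, TTTCGCGC, TTTGCCGC or TTTGGCGC, the first of which contains the core, was in none of the 8 windows and in 1.9% of all promoters. The FOXO site was found in the upstream Ccnd3 window alone among the 8, and 3.2% of all promoters held it. The GC box GGGCGG, searched on both strands and overlapping the E2F core at 1 of the Ccne1 matches, was in 6 of the 8 windows and in 32.7% of all promoters. These matches describe the letters of the windows, and binding was not measured.

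In the CON group the genes lay at very different levels. Levels are compared between genes only as the counts per 1000000 of the TMM-scaled library (CPM; TMM is edgeR's scaling of libraries) divided by the kb of annotated exon. Cdk4 was the most abundant, with 74.5 ± 2.21 CPM per kb (SD, n = 3), followed by Ccnd1 with 26.9 ± 0.231, Cdk6 with 13.0 ± 0.510 and Rb1 with 11.5 ± 0.234 CPM per kb. Ccne2 and Cdkn1b came next, with 9.50 ± 0.144 and 9.28 ± 0.207 CPM per kb, and the libraries of this pair overlapped. The libraries of Ccne1 (7.52 ± 0.232 CPM per kb) and Ccnd2 (7.24 ± 0.228 CPM per kb) also overlapped. Ccnd3 followed with 5.98 ± 0.243 CPM per kb, and Cdkn2c was the lowest with 1.52 ± 0.0786 CPM per kb. With the longest annotated transcript as the length, the middle of this order changed in the CON group. Ccnd3, at 13.6 CPM per kb, moved above Ccne2 (11.1), Ccnd2 (10.8), Ccne1 and Cdkn1b (9.28). Its many annotated transcripts make its exons together longer than any 1 of them. Ccnd2 also moved above Ccne1 and Cdkn1b, and Ccne1 above Cdkn1b, so the order of these genes depends on the length used. Cdk4, Ccnd1, Cdk6 and Rb1 stayed at the top and Cdkn2c at the bottom with either length.

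**Figure D1:**
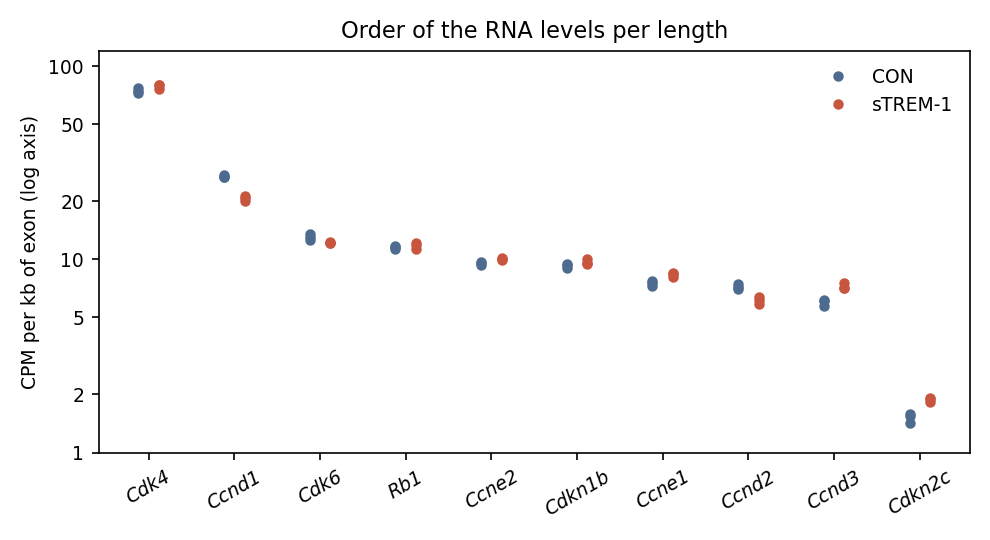
CPM per kb of annotated exon (log axis) of the 10 genes, ordered by their CON mean, with 1 point for each of the 3 CON and 3 sTREM-1 libraries. Cdk4 lies above 70 CPM per kb and Cdkn2c below 2 CPM per kb in every library.

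After sTREM-1, 5 of the 10 genes passed an adjusted p-value of 0.05 by the quasi-likelihood test of edgeR, a share to be read against 30.5% of all 14120 tested genes. Of these, Ccnd3 and Cdk4 were higher and Ccnd1, Ccnd2 and Cdk6 were lower, while 16.5% of all tested genes were called higher and 14.1% lower. The 3 D cyclins thus moved in different directions, and so did the 2 kinases that they bind. Without CON replicate 3 the count was 3 of 10, as both kinases then missed the threshold, and in that fit 25.8% of all tested genes were called. The libraries of the groups did not overlap for 8 of the 10 genes, against 40.7% of all tested genes. Of these 8 genes, 5 lay higher and 3 lower after sTREM-1, against 21.3% and 19.4% of all tested genes. At an unadjusted p under 0.05 the number called was 7 of 10, against 38.7% of all tested genes. The 10 genes and the lists below were chosen with earlier results of these data known, so the shares are given as a description. All changes were small. The largest fall, that of Ccnd1, was to 0.768 of the CON level, and none of the 10 genes reached a 1.5-fold change in either direction, which 2.13% of all tested genes did with an adjusted p-value under 0.05. In RNA of a whole culture, a change in the share of cells in a phase of the cycle and a change in RNA per cell cannot be told apart.

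**Figure D2:**
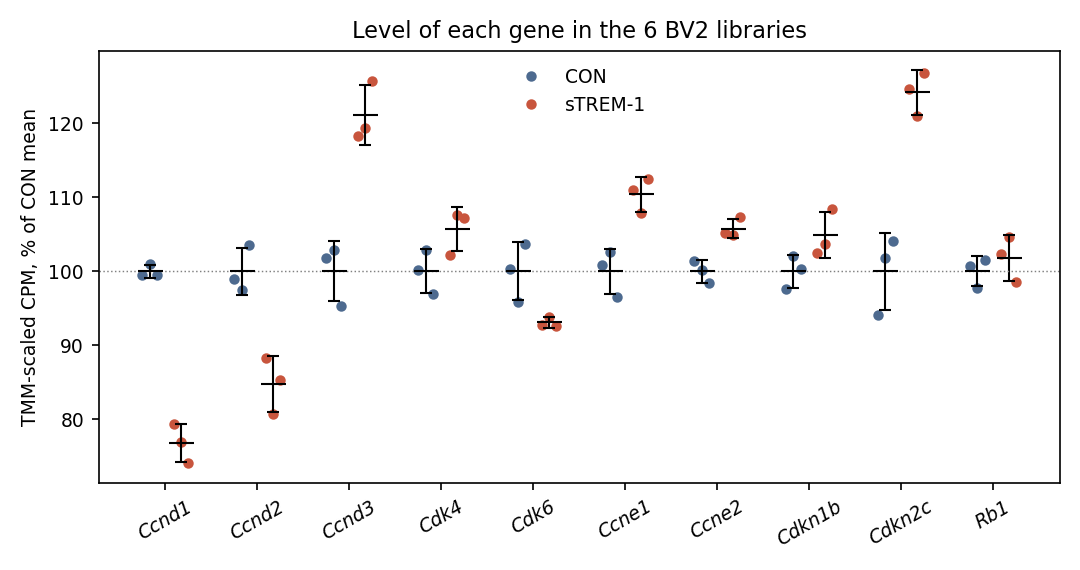
Level of each gene in every library as a percentage of its CON mean (TMM-scaled CPM), with 3 CON and 3 sTREM-1 points and the mean and SD of each group as bars. The sTREM-1 points of Ccnd1 and Ccnd2 lie below every CON point and those of Ccnd3 above, while the points of Rb1 and Cdk4 overlap between the groups.

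Ccnd1, on chromosome 7 of GRCm38 from 144929931 to 144939925 on the minus strand, encodes cyclin D1, the D cyclin most closely tied to growth factor signals. It had 126, 128 and 126 CPM in CON replicates 1, 2 and 3 and 101, 97.5 and 93.9 CPM in sTREM-1 replicates 1, 2 and 3. Every treated library was below every control library. Compared with the CON group, it fell by 23.2%, with a log2 fold change of -0.38 (standard error, SE, 0.03 and adjusted p by edgeR = 1.1e-10). The spread of the CON libraries was 0.860% of their mean, below the 1.39% that counting error alone gives at this depth.

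Ccnd2, on chromosome 6 from 127125162 to 127152193 on the minus strand, encodes cyclin D2, which is known to be repressed by FOXO factors and raised by MYC. Its libraries held 67.4, 66.4 and 70.5 CPM in the CON group and 60.1, 55.0 and 58.1 CPM in the sTREM-1 group, again with no overlap. It fell by 15.2%, and its log2 fold change was -0.24 (SE 0.04 and adjusted p by edgeR = 3.8e-05).

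Ccnd3, on chromosome 17 from 47505051 to 47599691 on the plus strand, encodes cyclin D3, which is prominent in blood cells. It had 53.5, 54.0 and 50.1 CPM in the CON libraries and 62.1, 62.7 and 66.1 CPM in the sTREM-1 libraries, so that all treated libraries lay above the controls. The level was 21.1% higher after sTREM-1, a log2 fold change of 0.28 (SE 0.04 and adjusted p by edgeR = 5.7e-06). The processed pseudogene Ccnd3-ps had 1 count in all 6 libraries together.

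The balance among the D cyclins was then read within each library, where it does not depend on how libraries are scaled. The log2 ratio of Ccnd1 to Ccnd3 counts was 1.24, 1.24 and 1.33 in the CON libraries and 0.69, 0.64 and 0.51 in the sTREM-1 libraries, a difference of -0.66 (p = 0.1 in a two-sided exact permutation test, which cannot go lower with 3 libraries a group). The log2 ratio of Ccnd2 to Ccnd3 was 0.33, 0.30 and 0.49 in the CON libraries and -0.05, -0.19 and -0.18 after sTREM-1. Ccnd2 thus had more counts than Ccnd3 in every CON library and fewer in every sTREM-1 library, and the difference was -0.52 (exact permutation p = 0.1, two-sided). This order is of counts, not levels per length. With the longest transcript as the length, Ccnd3 lay above Ccnd2 in every library of both groups. Ccnd1 fell further than Ccnd2, by a smaller margin. Their log2 ratio was 0.90, 0.95 and 0.84 in the CON libraries and 0.74, 0.83 and 0.69 after sTREM-1, a difference of -0.14 (exact permutation p = 0.1, two-sided). In all, 6 ratios between genes of a family were compared, and the Benjamini-Hochberg adjusted value was 0.1 for each of them.

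Per kb of exon, Ccnd1 made up 67.1% ± 0.207 (SD, n = 3) of D cyclin RNA in the CON group and 60.7% ± 1.23 (SD, n = 3) after sTREM-1. The share of Ccnd3 went from 14.9% ± 0.550 to 21.3% ± 1.02, and that of Ccnd2 was 18.0% ± 0.651 in the CON group and 18.0% ± 0.583 after sTREM-1. The sum of the 3 D cyclins per kb went from 40.1 ± 0.225 to 34.0 ± 0.666 CPM, or 0.849 of the CON value. With the longest transcript as the length, the shares of Ccnd1 were 58.2% and 50.4%, those of Ccnd2 were 18.5% and 17.7%, those of Ccnd3 were 23.4% and 31.9%, and the sum was 0.886 of the CON value. These shares are given as a description, with no test.

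**Figure D3:**
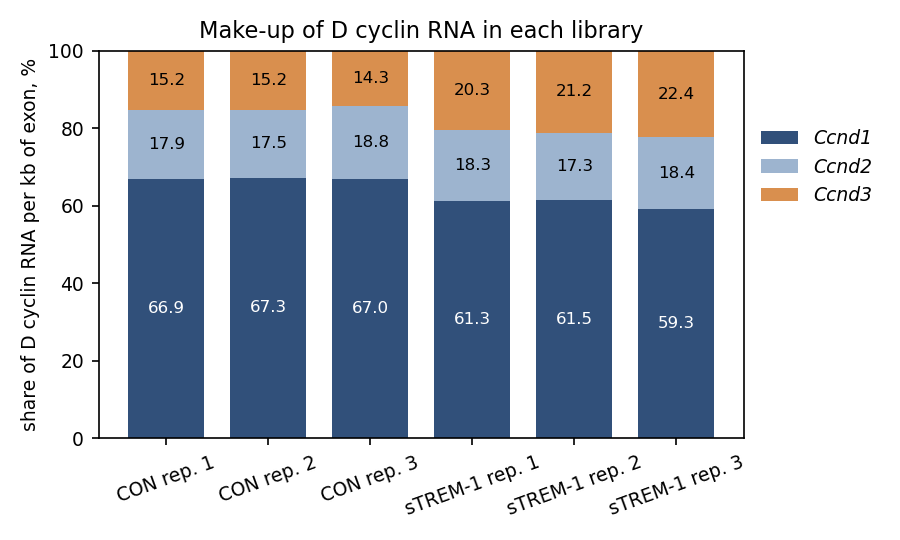
Share of Ccnd1, Ccnd2 and Ccnd3 in the D cyclin RNA of each library, as a percentage of their summed CPM per kb of exon. Ccnd3 makes up 14.3% to 15.2% in the 3 CON libraries and 20.3% to 22.4% in the 3 sTREM-1 libraries.

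The estimated changes of both kinases were smaller than those of the D cyclins. Cdk4, on chromosome 10 from 127063534 to 127067920 on the plus strand, encodes the more abundant of the kinases here, and its promoter is the one with 4 E-boxes printed above. It had 242, 249 and 235 CPM in the CON libraries and 248, 261 and 260 CPM in the sTREM-1 libraries, so that the lowest treated library lay below the highest control. Its log2 fold change was 0.08 (SE 0.03 and adjusted p by edgeR = 0.0277). The call was lost with upper-quartile scaling (edgeR adjusted p = 0.11), with library totals (edgeR adjusted p = 0.0861) and without any 1 of CON replicate 1, CON replicate 3, sTREM-1 replicate 2 and sTREM-1 replicate 3, where the log2 fold change was between 0.06 and 0.08 and the edgeR adjusted p between 0.0743 and 0.195.

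Cdk6, on chromosome 5 from 3341485 to 3531008 on the plus strand, encodes the closely related second kinase of the D cyclins. Its libraries had 183, 175 and 189 CPM in the CON group and 169, 171 and 169 CPM in the sTREM-1 group, with no overlap but with a gap smaller than the spread of the controls. It fell by 6.90%, a log2 fold change of -0.10 (SE 0.03 and adjusted p by edgeR = 0.00746), and without CON replicate 3 the log2 fold change was -0.08 (edgeR adjusted p = 0.0736). The log2 ratio of Cdk4 to Cdk6 counts was 0.40, 0.51 and 0.31 in the CON libraries and 0.55, 0.60 and 0.62 after sTREM-1, a difference of 0.18 (exact permutation p = 0.1, two-sided). The pair together had 87.5 ± 1.70 CPM per kb in the CON group and 90.9 ± 2.27 CPM per kb after sTREM-1 (SD, n = 3 each), and the libraries of the groups overlapped.

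The E cyclins lie downstream of Rb1 and are themselves targets of E2F. Ccne1, on chromosome 7 from 38097984 to 38107534 on the minus strand, had 20.2, 20.6 and 19.3 CPM in the CON libraries and 22.2, 21.6 and 22.5 CPM in the sTREM-1 libraries. The treated libraries all lay above the controls, and the log2 fold change of 0.14 (SE 0.06) had an unadjusted p of 0.0346 and an adjusted p of 0.0961 in edgeR's quasi-likelihood test. Ccne2, on chromosome 4 from 11191351 to 11204779 on the plus strand, had 33.7, 33.3 and 32.7 CPM in the CON libraries and 35.0, 34.9 and 35.7 CPM after sTREM-1, a log2 fold change of 0.08 (SE 0.05 and adjusted p by edgeR = 0.228). Neither E cyclin passed the test, and the 95% confidence interval of the fold was 1.01 to 1.21 for Ccne1 and 0.988 to 1.13 for Ccne2. Their log2 ratio was -0.73 ± 0.03 in the CON group and -0.67 ± 0.02 after sTREM-1 (SD, n = 3 each; exact permutation p = 0.1, two-sided), a difference of 0.06.

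Of the inhibitors, Cdkn2c had the highest fold estimate of the 10 genes and the fewest counts. It lies on chromosome 4 from 109660876 to 109667189 on the minus strand, and its counts were 157, 170 and 173 in the CON libraries and 232, 210 and 205 in the sTREM-1 libraries. These correspond to 3.83, 4.14 and 4.24 CPM against 5.08, 4.93 and 5.17 CPM, with no overlap. The log2 fold change was 0.31 (SE 0.13), with an unadjusted p of 0.0253 and an adjusted p of 0.0746 in edgeR's quasi-likelihood test, and the 95% confidence interval of the fold ran from 1.03 to 1.498. Counting error alone gives a spread of 7.75% in its CON libraries at this depth, more than for any of the other 9 genes.

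Cdkn1b, on chromosome 6 from 134920401 to 134925513 on the plus strand, had 41.2, 43.1 and 42.3 CPM in the CON libraries and 43.3, 43.8 and 45.8 CPM in the sTREM-1 libraries. The lowest treated library lay just above the highest control, and the log2 fold change of 0.07 (SE 0.05) did not pass (edgeR quasi-likelihood adjusted p = 0.281). The 95% confidence interval of its fold was 0.984 to 1.12. The log2 ratio of Cdkn1b to Cdkn2c counts was 3.42, 3.38 and 3.32 in the CON libraries and 3.09, 3.15 and 3.15 after sTREM-1, a difference of -0.24 (exact permutation p = 0.1, two-sided).

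Rb1, on chromosome 14 from 73183673 to 73325822 on the minus strand, encodes the protein that the D cyclin kinases act upon. It had 69.9, 67.8 and 70.5 CPM in the CON libraries and 71.0, 72.7 and 68.4 CPM in the sTREM-1 libraries, which overlapped. Its log2 fold change was 0.03 (SE 0.04 and adjusted p by edgeR = 0.658), and the 95% confidence interval of the fold was 0.965 to 1.07. RNA levels carry no information on the phosphorylation by which Rb1 is regulated.

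**Figure D4:**
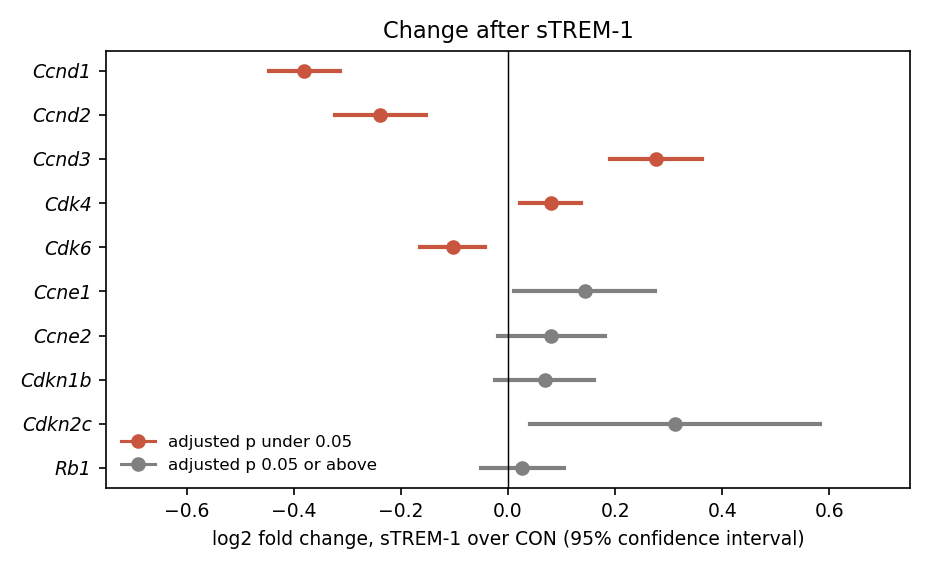
log2 fold change of each gene, sTREM-1 over CON (3 libraries each), as fitted by edgeR, with its 95% confidence interval as a line and genes with an adjusted p-value under 0.05 in red. Ccnd1 and Ccnd2 lie below 0 and Ccnd3 above, and the widest interval is that of Cdkn2c.

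Exons of 7 of the 10 genes overlap those of a gene on the opposite strand in the GENCODE annotation of GRCm38, and no source used here says whether counting used the strand. Tspan31 shares 641 bp with Cdk4, whose exons span 3249 bp, and had 27412 counts in the 6 libraries together, against 62450 for Cdk4. It fell by 0.16 on the log2 scale (edgeR adjusted p = 2.3e-04), in the direction opposite to Cdk4. Oraov1 shares 1100 bp with Ccnd1 and had 3389 counts against 28039, with a log2 fold change of -0.16 (edgeR adjusted p = 0.182). Bysl shares 361 bp with Ccnd3 and had 8963 counts against 14579, with a log2 fold change of -0.04 (edgeR adjusted p = 0.609). Ints8 shares 609 bp with Ccne2 and had 6829 counts against 8579, with a log2 fold change of -0.10 (edgeR adjusted p = 0.272). Rcbtb2 and Lpar6 share 488 and 408 bp with Rb1 and had 13076 and 1873 counts against 17584. Their log2 fold changes were 0.06 and 0.12 (edgeR adjusted p = 0.359 and 0.444). 9330179D12Rik shares 368 bp with Ccnd2 and had 187 counts in all. The antisense genes Gm43126 of Ccnd2 and Gm17590 of Cdk6 were not analysed here. Cdkn1b, Cdkn2c and Ccne1 had no such overlap.

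Around these genes, 33 of 34 further G1 and S regulators were tested, and 10 rose and 5 fell (edgeR, adjusted p-value under 0.05). These 15 genes are 45.5% of the list, where 30.5% of all tested genes were called, 16.5% higher and 14.1% lower. The median log2 fold change of the list was 0.042, against -0.002 for all tested genes. The counts by role that follow are of few genes each and are read against the same shares. E2f7 was listed at 0 counts in every library. Among the other inhibitors of the kinases, 2 of 5 rose. Cdkn1a, which encodes the p53 target p21, went from 75.2, 80.8 and 83.0 CPM to 93.6, 91.3 and 89.3 CPM, a log2 fold change of 0.20 (edgeR adjusted p = 1.2e-04). Cdkn2a, with a log2 fold change of 0.13 (edgeR adjusted p = 0.0198), was the other. It encodes an inhibitor of Cdk4 and Cdk6 and, from a second reading frame, an activator of p53, and counts per gene do not part them. Cdkn1c, Cdkn2b and Cdkn2d had values of 0.00, 0.15 and 0.13 on the log2 scale and did not pass. Of the pocket proteins, E2F factors and their DP partners, 6 of 11 rose and 1 fell. Rbl2, which encodes the Rb1 relative p130, had a log2 fold change of 0.31 (edgeR adjusted p = 8.5e-06), compared with 0.03 for Rb1 itself. E2f8, a repressor of the family, and Tfdp2, a DNA-binding partner of E2F, rose by 0.37 and 0.33 on the log2 scale, and E2f3, an activator, fell by 0.11 (edgeR adjusted p = 2.0e-04, 2.8e-05 and 0.0241). The activators did not move together, as E2f1 rose by 0.15 (edgeR adjusted p = 0.0048) and E2f2 had a value of 0.05 (edgeR adjusted p = 0.454). Rbl1 and Tfdp1 rose by 0.16 and 0.18 (edgeR adjusted p = 0.00339 and 3.3e-04).

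Of Cdk2, its activators and the chaperone Cdc37, 2 of 6 rose and 3 fell. Cdc37, which loads Cdk4 onto HSP90, rose by 0.23 on the log2 scale (edgeR adjusted p = 2.9e-06), and Cdk2, the partner of the E cyclins, rose by 0.15 (edgeR adjusted p = 0.00609). The kinase that activates Cdk2, Cdk4 and Cdk6 is made of Cdk7, Ccnh and Mnat1. Ccnh fell by 0.26 and Mnat1 fell by 0.12 on the log2 scale (edgeR adjusted p = 8.3e-06 and 0.0227), while Cdk7 had a value of 0.04 (edgeR adjusted p = 0.553). Cdc25a, the phosphatase that removes inhibitory phosphates from Cdk2, fell by 0.20 (edgeR adjusted p = 0.00113). Among 11 genes of ubiquitin ligases for cyclins and p27, 1 passed, or 9.09%, below the 30.5% of all tested genes. This was Fbxo31, which targets cyclin D1 for destruction and fell by 0.28 (edgeR adjusted p = 6.2e-05). Skp2 and Cks1b, which together recognise p27, had log2 values of 0.02 and 0.03, and Ambra1, a further ligase subunit for D cyclins, had one of -0.07, and none of these passed.

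Of 29 genes known as E2F targets in DNA synthesis and S phase, 20 rose and 0 fell (edgeR, adjusted p-value under 0.05), against 16.5% and 14.1% of all tested genes. At an unadjusted p under 0.05 the counts were 23 and 0, where 38.7% of all tested genes passed in either direction, and in DESeq2 they were 20 and 0, where 28.4% did. Their median log2 fold change was 0.29. That such genes were mostly higher was known from earlier results of these data, and the list is given as a description. Mcm6, a subunit of the replicative helicase, Lig1, which joins DNA fragments, and Rrm1, the large subunit of ribonucleotide reductase, rose by 0.45, 0.53 and 0.41 on the log2 scale (edgeR adjusted p = 4.0e-13, 9.6e-13 and 1.6e-12). These genes thus stood higher in the same libraries in which Ccnd1 and Ccnd2 stood lower and Ccne1 and Ccne2 did not pass the test.

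**Figure D5:**
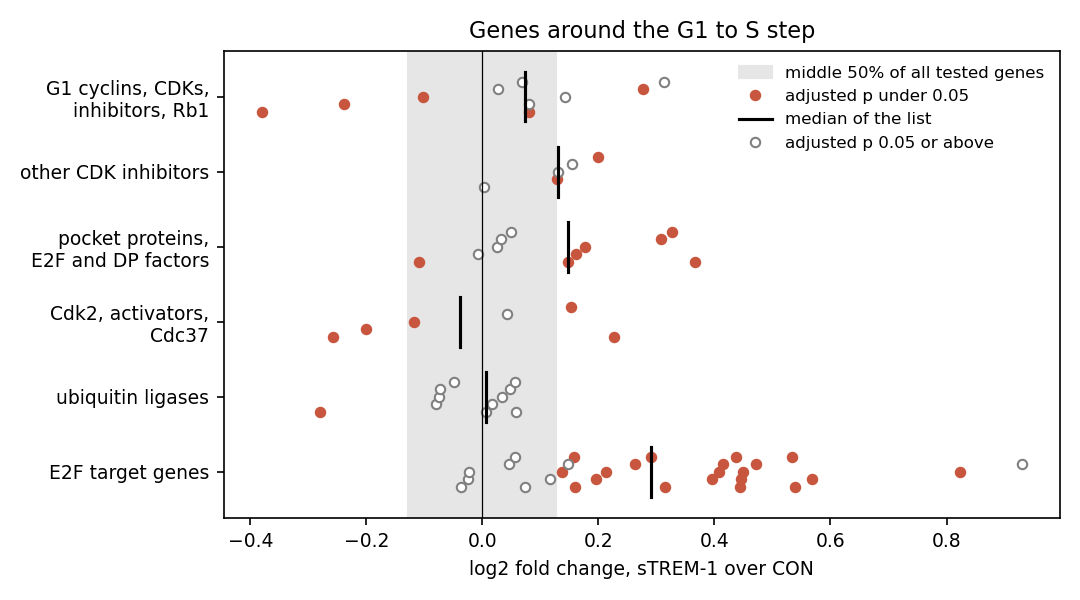
log2 fold change, sTREM-1 over CON, of the 10 genes and of the other genes of the pathway by role, with 1 point for each gene, red for an adjusted p-value under 0.05 by edgeR, and a black line at the median of each list. The grey band, from -0.13 to 0.13, holds the middle 50% of all tested genes, and most E2F targets lie to its right.

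The libraries held 40070633 to 45877107 counts. Of 12 microglia and macrophage markers, 11 had counts and Aif1 was listed at 0, while Cx3cr1, P2ry12 and Tmem119, which mark microglia in the brain, had means below 2 CPM in both groups. The summed level of these markers was 2802 to 2827 CPM in the CON libraries and 3086 to 3163 CPM after sTREM-1. Of the 11 tested markers, 5 were called higher and 0 lower by edgeR, against 16.5% and 14.1% of all tested genes. Csf1r, which encodes the receptor of CSF1, had the largest difference in CPM of the 12. It went from 521 ± 3.13 to 753 ± 20.5 CPM (SD, n = 3 each, log2 fold change 0.53, edgeR adjusted p = 2.9e-17). The largest log2 fold change among the tested markers, 0.90, was that of Cx3cr1 at its low level (edgeR adjusted p = 0.0156). Cd68 and Tyrobp had log2 values of -0.04 and -0.04 and did not pass. The part of this summed level in the results was not tested. The markers of astrocytes, neurons and fibroblasts each summed to less than 1 CPM in every library, with Aqp4, Aldh1l1, Rbfox3, Col1a2 and Dcn at 0, and both T cell markers were at 0. The 4 oligodendrocyte markers, with Mog at 0, summed to 7.16 to 7.84 CPM in the CON libraries and to 5.63 to 6.70 CPM after sTREM-1, and their part was not tested either.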

How the data were processed

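RNA of 3 CON and 3 sTREM-1 libraries of BV2 cells was measured. The table deposited by the authors gives raw counts, as whole numbers, for each gene symbol. Their methods name FastQC, RSEM, FPKM values and edgeR, and the submitters' processing notes name HISAT2 2.0.4 and the human builds hg19 and GRCh38 with no role, although the symbols are those of mouse genes. The annotation and the use of strand are not given in the sources used here. All 6 count columns were used.

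Low genes were removed with filterByExpr at a minimum count of 10. Libraries were scaled by TMM and groups compared by the quasi-likelihood test (edgeR 4.0.16, R 4.3.3) without covariates, with Benjamini-Hochberg adjustment over 14120 tested genes, and called at an adjusted p-value under 0.05. Each SE was derived from the log2 fold change and its F value. Ratios used a pseudocount of 0.5 counts and exact permutation tests. The depth of at least 40070633 counts keeps counting error small except for genes of few counts. The procedure was run on simulated counts to check the code, with the spread taken from these libraries and far fewer changed genes than were called here. No result rests on that run. Gene positions and exon lengths came from GENCODE M21 (GRCm38), and promoters from RefSeq (GRCm38.p6). Libraries of 1 group differed by more than sampling noise (chi-square per gene 3.45 to 4.99, against 20.3 to 22.3 between groups), and each was kept as a replicate.

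The member genes and the lists were chosen with earlier results of these data known. All 10 member genes were named. Of the other regulators, those named are up to 5 in each direction that passed the test without overlap between the groups, by smallest p, and of the E2F targets up to 3. Genes with exons overlapping those of a member were named where they had counts, and Gm43126 and Gm17590 for completeness. Cdkn2a, Cdkn1c, Cdkn2b, Cdkn2d, E2f1, E2f2, E2f7, Rbl1, Tfdp1, Cdk2, Cdk7, Skp2, Cks1b, Ambra1, Csf1r, Cx3cr1, Cd68 and Tyrobp were named after their values were seen. Alternatives were RLE, upper-quartile and total scaling, no filter, at least 10 counts in every library, DESeq2 1.42.0, the exact test of edgeR, the replicate number as a block, omission of single libraries, other rules for a call, a pseudocount of 0 and another gene length. Leaving out libraries for the shares was added after the data were seen.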

Additional observations from a re-analysis of the deposited data

How the results depend on the processing

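All log2 fold changes of the 10 genes kept their sign in every alternative run. At an adjusted p under 0.05, their calls kept their side of the threshold under every other scaling, filter, tool and set of libraries, with these exceptions. The call of Cdk4 was lost with upper-quartile factors (log2 fold change 0.0589, edgeR adjusted p = 0.11) and with library totals (log2 fold change 0.0632, edgeR adjusted p = 0.0861). Calls of Cdk4 and Cdk6 were also lost without some single libraries. Without single libraries, the log2 fold changes of Cdk4 and Cdk6 ran from 0.0563 to 0.10 and from -0.13 to -0.0781. The median log2 fold change of all genes was -0.023 with upper-quartile factors and -0.018 with library totals, against -0.002. The cause of the lost calls was not tested. The number of the 10 genes called was 5, and 3 to 5 without single libraries. The further regulators called numbered 15, and 12 to 14 without single libraries, and the E2F targets called numbered 20, and 20 to 21. Of all tested genes 30.5% were called, and 25% to 26.8% without single libraries. With an adjusted p under 0.05 and at least a 1.5-fold change, the numbers called were 0, 0 and 1, where 2.13% of all tested genes passed. All 5 calls among the 10 genes were lost, as none of the 10 reached this fold. At an unadjusted p under 0.05 the numbers were 7, 16 and 23, where 38.7% of all tested genes passed, with Ccne1 and Cdkn2c added among the 10 genes.

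With the replicate number as a block, 5 of the 10 genes, 15 regulators and 22 E2F targets were called, and the calls of the 10 genes were those without it. Over all genes the block gave 4613 calls against 4312. Deviations of same-numbered libraries correlated at -0.018, -0.033 and -0.014 across genes, no library correlated best with its own number, and the numbers were not taken as a pairing. Compared within replicate numbers, the 6 ratios kept their direction (exact sign-flip test over 3 pairs, which allows no p under 0.25). The ratios also kept their direction with a pseudocount of 0 and without each library.

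With the longest transcript as the length, the difference in share of D cyclin RNA, sTREM-1 less CON, was -7.77 percentage points for Ccnd1, -0.815 for Ccnd2 and 8.59 for Ccnd3, against -6.37, -0.0237 and 6.39 with the exon union. The cause was not tested for these. With the exon union and without single libraries these differences ran from -6.76 to -5.66, from -0.305 to 0.333 and from 5.86 to 6.87, so that no direction is read for Ccnd2. Depth limits Cdkn2c most, with 157 to 232 counts a library.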
